A study of Mus musculus with 6 samples.

Results

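The type I interferon antiviral response was examined in primary neonatal mouse heart cells as a list of 43 interferon-stimulated genes, the transcripts that cells make when interferon signals through its receptor. The rule for the list is the known function of the genes and uses no measured value, but the list was drawn up with earlier results of these data known. All 43 were found among the 54532 genes of the deposited table, and 38 of them had a mean of at least 0.5 FPKM (fragments counted for a gene, divided by its exon length and by the depth of the library), the level required for testing, as did 13794 genes in all. The other 5 members, Zbp1, Oas2, Herc6, Mx1 and Mx2, were below that level and are described by their values.

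The cells were cardiomyocyte cultures from hearts of newborn mice with a modified Rit1 gene, from which Cre recombinase makes a copy coding for the M90I variant of RIT1, a small GTPase related to RAS. On day 3 after isolation the cultures received adenovirus encoding GFP (AdGFP, genotype Rit1 +/+, 3 samples) or adenovirus encoding GFP-Cre (AdCre, genotype Rit1 M90I/+, 3 samples), and messenger RNA was sequenced. Both groups therefore met an adenovirus and GFP, and only AdCre met the recombinase. None of these samples received Cre without the modified gene, so the variant and the recombinase cannot be told apart, and values at the gene level do not separate the variant allele from the wild-type allele.

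Type I interferons bind a receptor made of IFNAR1 and IFNAR2, whose kinases JAK1 and TYK2 phosphorylate transcription factors that include STAT2. With IRF9 these form the complex ISGF3, which binds the interferon-stimulated response element (ISRE) in the promoters of its targets. The targets include sensors of viral RNA (RIG-I, MDA5), enzymes that detect RNA and switch on RNase L (OAS proteins) and blocks to translation (IFIT proteins, PKR). They also include the ubiquitin-like modifier ISG15 and factors such as IRF7 that feed back on interferon production. Cells lining and filling the heart, including macrophages and endothelial cells, can mount this response as well as cardiomyocytes.

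The promoters of members are shown first because the ISRE is the sequence that defines the pathway. RefSeq windows (GRCm38.p6) from 250 bases before to 50 bases after a transcript start were at hand for 32 of the 43 members. The ISRE core, 2 copies of GAAA with any 2 bases between them, was searched on both strands with overlapping matches allowed and was present in the windows of 14 of the 32 members (43.8%), against 3.99% of the 27025 genes with a window, 3.44% of all 32851 windows and 3.51% of the 10092 tested genes with one. The longer form, in which CT directly follows the core, was present in 8 of 32 members (25%) against 0.303% of genes. Matches are descriptions of letters and not shown binding sites. The windows below are the stretch around the upstream matches in the 6 members with the smallest p among those that hold one, read 5′ to 3′ along the gene's strand, with the ISRE core letters in capitals (where a match lies on the opposite strand, the copies read TTTC).

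Rsad2, chr12:26456548-26456587, minus strand: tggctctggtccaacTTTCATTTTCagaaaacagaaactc
Bst2, chr8:71537572-71537617, minus strand: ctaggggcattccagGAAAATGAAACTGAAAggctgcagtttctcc
Ifit1, chr19:34640770-34640828, plus strand: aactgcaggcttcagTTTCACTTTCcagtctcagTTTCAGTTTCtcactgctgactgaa
Oas1a, chr5:120907526-120907560, minus strand: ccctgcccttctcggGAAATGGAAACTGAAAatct
Ifit3, chr19:34583358-34583431, plus strand: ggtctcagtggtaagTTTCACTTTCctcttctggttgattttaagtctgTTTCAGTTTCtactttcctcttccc
Isg15, chr4:156200860-156200911, minus strand: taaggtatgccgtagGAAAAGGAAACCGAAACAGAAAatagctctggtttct

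The Isg15 window held 3 overlapping matches in a row, at 78 to 57 bases before the start, and those of Bst2 and Oas1a each held 2 overlapping matches. The Ifit1 and Ifit3 windows each held 2 separate matches on the opposite strand. Ifit2, the neighbour of Ifit3, held no match in its window, nor did Irf7, Irf9, Cmpk2 or Parp12. The letters TTCNNNGAA, the gamma-activated site, were present in 8 of 32 members (25%) against 9.55% of genes, with 1 match in Irf1 at 90 to 82 bases before the start. The NF-κB motif, searched as GGGA, any 4 bases and CC, was present in 9 of 32 members (28.1%) against 22.9% of genes and 30.8% of tested genes. The 14 tested members with an ISRE core had a median log2 fold change (AdCre over AdGFP) of 1.46, from 0.23 to 2.28, and the 17 tested members with a window but no core had a median of 0.82, from -0.05 to 1.98, so the ranges overlapped over most of their length.

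**Figure D1:**
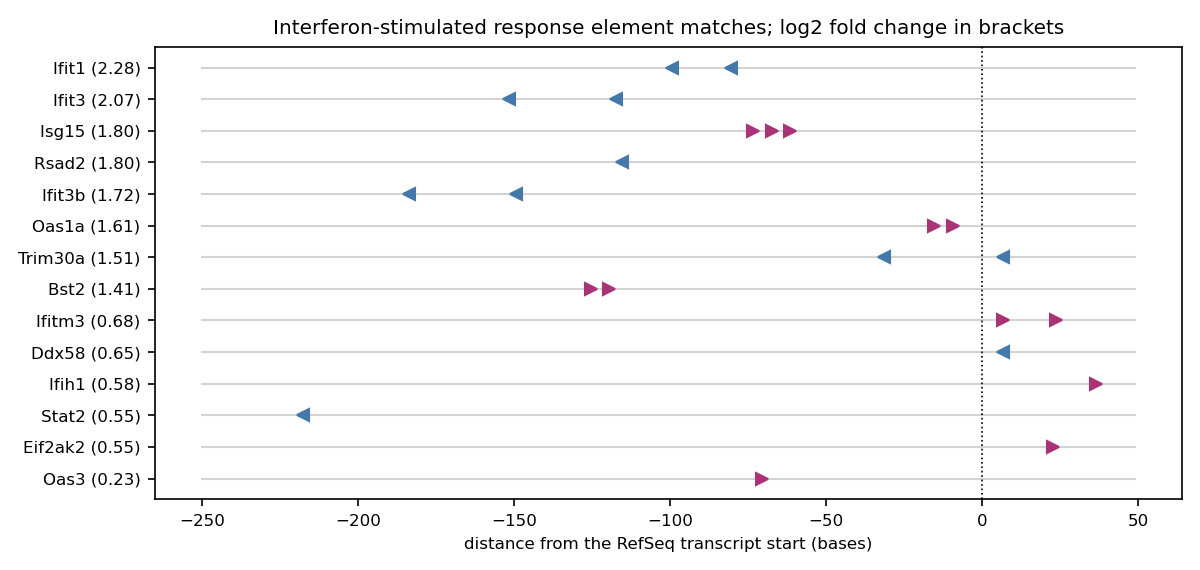
Position of ISRE core matches in the 14 members that hold one; the x axis is the distance in bases from the RefSeq transcript start of the window that holds the match, triangles point right for matches on the gene's strand and left for the opposite strand, and genes are ordered by log2 fold change. The 6 members with the largest fold changes had all matches upstream of the start. So did Bst2 (log2 fold change 1.41), Stat2 (0.55) and Oas3 (0.23, the smallest of the 14). Trim30a had 1 before and 1 after 2 different transcript starts, and Ifitm3, Ddx58, Ifih1 and Eif2ak2 had them after the start.

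As a group the members were higher in AdCre. Of the 38 tested, 35 had a mean log2 level above that of AdGFP (49.6% of all tested genes did), and their median log2 fold change was 0.83, against -0.00 for all tested genes. The median was 0.44 without AdCre 3 and 1.23 without AdCre 1, and 0.56 without AdGFP 1. One by one, the log2 fold changes of 28 of the 35 higher members moved by over 1.5 times when some library was left out, 27 without AdCre 3, 12 without AdCre 1, 9 without AdGFP 1, 6 without AdGFP 3, 3 without AdCre 2 and 1 without AdGFP 2, while only that of Ifit2 changed sign. Fold changes above 1 on the log2 scale were reached by 17 members (2.04% of all tested genes). With all 6 samples the largest were those of Ifit1 (2.28), Usp18 (2.10), Ifit3 (2.07), Cmpk2 (1.98), Isg15 and Rsad2 (1.80 each), and the 3 members that were lower in AdCre were Ifi27, Dtx3l and Parp9. The direction of Parp9 and Dtx3l turned with the scaling, to log2 fold changes of 0.08 and 0.04 when values were rescaled to TPM.

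No member passed the test when the 6 samples were taken as unpaired. In limma with Benjamini-Hochberg adjustment over all tested genes, 0 of 38 members were called at an adjusted p of 0.05 (0.00725% of all tested genes were called higher), while 14 were higher at an unadjusted p under 0.05 (4.71% of genes). Samples with the same replicate number deviated together from their group means, so the replicate number was also used as a block. With the block, limma called 21 of 38 members higher (2.64% of all tested genes) and 0 lower (3.51% of genes), and 32 were higher at an unadjusted p under 0.05 (11.5% of genes). The 21 were Ddx58, Dhx58, Trim25, Oas1a, Oasl2, Irf1, Irf7, Irf9, Isg15, Usp18, Ifit1, Ifit3, Rsad2, Bst2, Ifitm3, Parp12, Rtp4, Ifi27l2a, Xaf1, Trim30a and Lgals3bp. The count depended on pairs 2 and 3 and on the model: it was 0 without pair 3 (0.00725% of genes called higher), 2 without pair 2 (0.362%) and 25 without pair 1 (2.35%), with 29, 29 and 33 members at an unadjusted p under 0.05. It was 0 of 43 without the filter on low genes (0.0387% of genes) and 0 of 38 without limma's intensity trend (0%), with 35 and 33 members at an unadjusted p under 0.05, and 32 when voom was run on recovered reads (7.27%).

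The lack of calls in the unpaired fit went with a wide spread inside each group. Replicate 3 was the highest of its group in both groups for 29 of the 38 members (20.1% of all tested genes). The median of the members' log2 levels, set against each member's AdGFP mean, was -0.43, -0.02 and 0.49 in AdGFP 1, 2 and 3 and 0.18, 0.67 and 1.83 in AdCre 1, 2 and 3. AdCre 1 was therefore below AdGFP 3, and this held for 27 members one by one (49.7% of all tested genes). Within pairs the order was steadier: 32 members were higher in AdCre in all 3 pairs (23.9% of all tested genes), with median differences of 0.64, 0.70 and 1.19 on the log2 scale in pairs 1, 2 and 3, where the medians of all tested genes lay between -0.01 and 0.01. Every AdCre sample was above every AdGFP sample for 9 members (7.36% of all tested genes), namely Trim25, Eif2ak2, Oasl1, Usp18, Rsad2, Cmpk2, Bst2, Parp12 and Ifi35. Leaving out samples can only raise or keep that number, and it was 25 without AdGFP 3 (13% of genes), 29 without AdCre 1 (11.7%), 29 without pair 1 (20.4%) and 25 without pair 3 (16.3%).

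**Figure D2:**
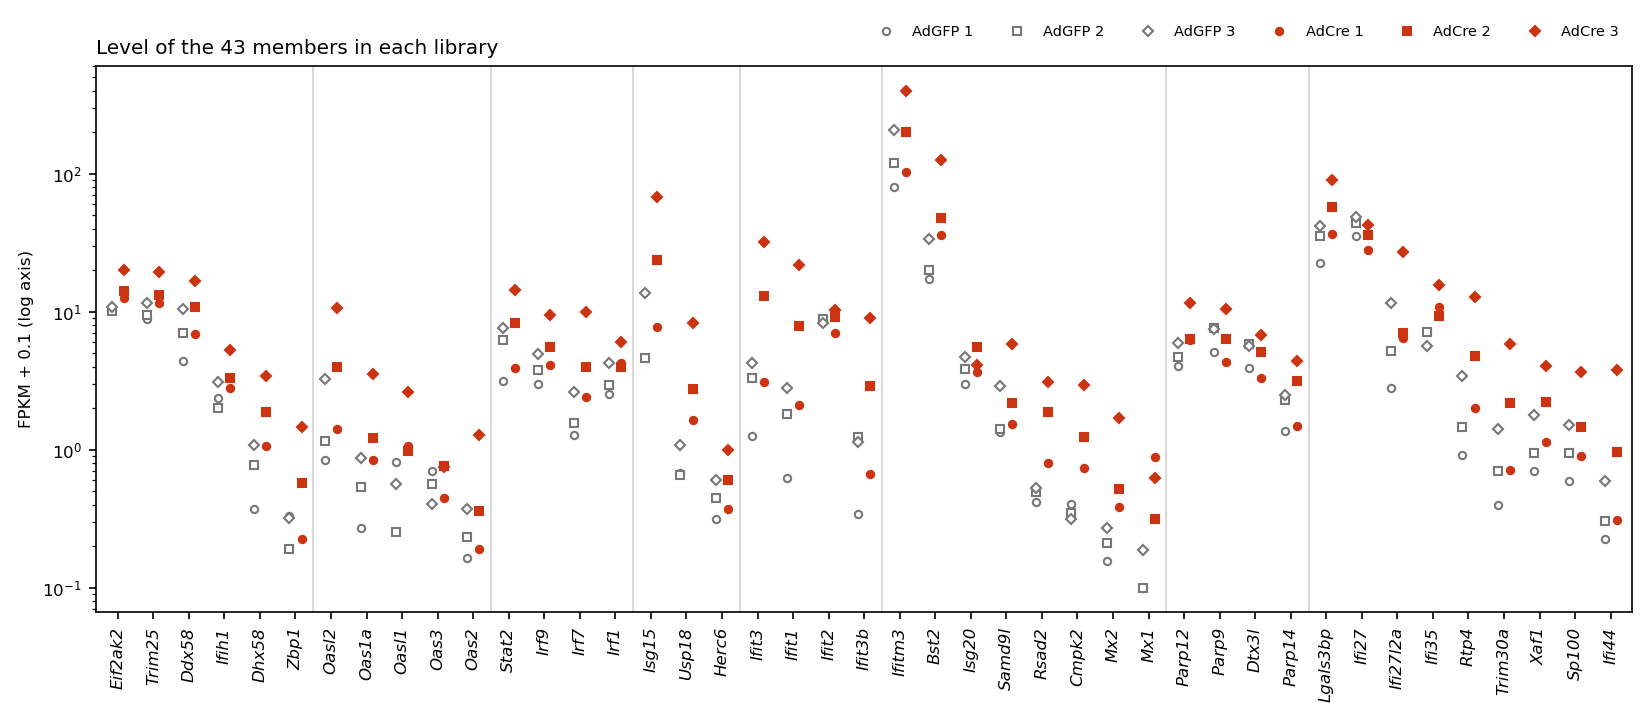
FPKM + 0.1 (log axis) of all 43 members in each of the 6 libraries; open grey symbols are AdGFP and filled red symbols AdCre, circles, squares and diamonds are replicates 1, 2 and 3, and grey lines separate the functional classes. Diamonds top both groups for most members, and the red and grey symbols overlap in all but 9 of the tested members.

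In what follows, FPKM values are given in the order of replicates 1, 2 and 3, fold changes are differences of the group means of log2(FPKM + 0.1) with the standard error of the fit, and adjusted p-values are limma's, first without and then with the replicate block. An exact permutation test of 3 samples against 3 cannot give a p below 0.1, the value it gave for each of the 9 members whose groups did not overlap.

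The RNA sensors and their regulators were higher in AdCre by a median log2 fold change of 0.58, and 3 of the 5 tested passed with the block. Ddx58 encodes RIG-I, the sensor of viral RNA with triphosphate ends. It stood at 4.32, 6.89 and 10.4 FPKM in AdGFP and 6.82, 10.7 and 16.7 FPKM in AdCre. The groups overlapped, yet the 3 pairs differed by nearly the same amount (0.65, 0.62 and 0.68 on the log2 scale), and the log2 fold change was 0.65 ± 0.40 (SE, adjusted p = 0.662 without and 0.0194 with the block). Dhx58 encodes LGP2, a regulator of RIG-I and MDA5. Its values were low, at 0.272, 0.675 and 0.979 FPKM in AdGFP and 0.954, 1.78 and 3.31 FPKM in AdCre, with a log2 fold change of 1.48 ± 0.54 (adjusted p = 0.426 and 0.0232). Trim25, the ubiquitin ligase that acts on RIG-I, was at 8.78, 9.42 and 11.5 FPKM against 11.5, 13.2 and 19.4 FPKM. The highest AdGFP sample lay just under the lowest AdCre sample, and the log2 fold change was 0.54 ± 0.21 (adjusted p = 0.463 and 0.0397). Eif2ak2, the kinase PKR that stops translation on double-stranded RNA, was at 10.2, 9.97 and 10.7 FPKM against 12.5, 14.1 and 19.9 FPKM. Its AdGFP samples were close together and all AdCre samples lay above them, but the log2 fold change of 0.55 ± 0.18 did not pass (adjusted p = 0.374 and 0.065). Ifih1, which encodes the long-RNA sensor MDA5, had a log2 fold change of 0.58 (adjusted p = 0.547 and 0.0755). Zbp1, a sensor of Z-form nucleic acid, was below the level for testing, with 20, 8 and 19 recovered reads in AdGFP and 14, 43 and 132 in AdCre.

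The OAS enzymes make the 2′-5′ oligoadenylates that switch on RNase L, and their genes lie on chromosome 5. Oas1a (chr5:120896256-120907521) stood at 0.172, 0.439 and 0.775 FPKM in AdGFP and 0.745, 1.11 and 3.45 FPKM in AdCre, a log2 fold change of 1.61 ± 0.64 (adjusted p = 0.47 and 0.0322). Its highest AdGFP value was just above its lowest AdCre value, and 57.6% of its 50-base words are shared with its neighbour Oas1g, so reads could have been split between the 2 genes. Oasl1, which restrains Irf7 translation, was at 0.714, 0.151 and 0.467 FPKM against 0.958, 0.876 and 2.5 FPKM. The groups did not overlap, and the log2 fold change was 1.51 ± 0.57 (adjusted p = 0.438 and 0.0895). Oasl2 was at 0.743, 1.06 and 3.14 FPKM against 1.31, 3.85 and 10.5 FPKM, so that AdGFP 3 lay above AdCre 1, with a log2 fold change of 1.41 ± 0.79 (adjusted p = 0.624 and 0.0312). Oas3 differed from the other family members in that its pairs did not share a direction, and its log2 fold change was 0.23 (adjusted p = 0.915 and 0.779). Oas2 was below the level for testing, with 7, 15 and 30 reads in AdGFP and 13, 30 and 146 in AdCre.

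Among the transcription factors, Irf1, Irf7 and Irf9 passed with the block and Stat2 did not, with a median log2 fold change of 0.61 for the 4. Irf7 is the factor that amplifies interferon production and is itself an interferon target. Its level was 1.17, 1.47 and 2.5 FPKM in AdGFP and 2.31, 3.9 and 9.83 FPKM in AdCre. Only AdGFP 3 reached into the range of AdCre, and the log2 fold change was 1.40 ± 0.52 (adjusted p = 0.438 and 0.0269). Irf1, an early-response factor that binds related elements, was at 2.43, 2.84 and 4.11 FPKM against 4.12, 3.87 and 5.93 FPKM, a log2 fold change of 0.56 ± 0.25 (adjusted p = 0.508 and 0.047). Irf9, the DNA-binding subunit of ISGF3, was at 2.87, 3.68 and 4.86 FPKM against 4.03, 5.41 and 9.32 FPKM, a log2 fold change of 0.65 ± 0.33 (adjusted p = 0.577 and 0.043). Both had a single AdGFP sample inside the AdCre range, replicate 3. Stat2, another ISGF3 subunit, had a log2 fold change of 0.55 (adjusted p = 0.803 and 0.0784).

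The 2 tested genes of the ISG15 system showed large differences. Isg15 (chr4:156199424-156200818) encodes the ubiquitin-like protein that is attached to other proteins during the response. It stood at 4.5, 4.54 and 13.6 FPKM in AdGFP and 7.68, 23.6 and 67.3 FPKM in AdCre. AdCre 3 stood far above every other library while AdCre 1 was below AdGFP 3, and the log2 fold change was 1.80 ± 0.79 (adjusted p = 0.511 and 0.0363). Usp18 (chr6:121245906-121270917) encodes the protease that removes ISG15 and also dampens the interferon receptor. It was at 0.58, 0.551 and 0.974 FPKM against 1.54, 2.64 and 8.2 FPKM, with no overlap and a log2 fold change of 2.10 ± 0.57 (adjusted p = 0.319 and 0.0286). Herc6, the ligase that attaches ISG15 in mouse, was below the level for testing, with 49, 81 and 115 reads in AdGFP and 81, 120 and 229 in AdCre.

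The IFIT proteins bind foreign RNA and block its translation, and their genes stand in a row on chromosome 19. Ifit1 (chr19:34640871-34650009) was at 0.518, 1.72 and 2.69 FPKM in AdGFP and 2.01, 7.73 and 21.6 FPKM in AdCre, a log2 fold change of 2.28 ± 0.89 (adjusted p = 0.458 and 0.0145). It was the largest of any tested member with all 6 samples, but not without AdGFP 1, where it was 1.66, nor without AdCre 2, where it was 2.21 beside 2.24 for Usp18, and it was 1.47 without AdCre 3. Ifit3 (chr19:34583531-34588731) was at 1.16, 3.21 and 4.11 FPKM against 3.01, 12.8 and 32 FPKM, a log2 fold change of 2.07 ± 0.85 (adjusted p = 0.483 and 0.0262). In both genes AdCre 1 lay inside the AdGFP range and AdCre 2 and AdCre 3 lay above it. Ifit3b (chr19:34607970-34613401) was at 0.243, 1.14 and 1.03 FPKM against 0.562, 2.81 and 8.86 FPKM, a log2 fold change of 1.72 ± 0.96 (adjusted p = 0.624 and 0.0681), and since 51.2% of the 50-base words of Ifit3 occur in Ifit3b and 45% the other way, the values of the 2 genes are not independent. Ifit2 (chr19:34550694-34576419) did not share the pattern of its neighbours. It had the highest level of the 4 in AdGFP, at 8.5, 8.71 and 8.14 FPKM, and stood at 6.92, 9.04 and 10.1 FPKM in AdCre, a log2 fold change of 0.02 ± 0.16 (adjusted p = 0.986 and 0.933) whose sign changed when single samples were left out.

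The remaining antiviral effectors were led by Cmpk2, Rsad2 and Bst2, none of which overlapped between groups. Rsad2 (chr12:26442746-26456452) encodes viperin, which makes a chain-terminating nucleotide, and Cmpk2 (chr12:26469204-26479837), the gene beside it, encodes the kinase that supplies its substrate. Rsad2 was at 0.317, 0.391 and 0.43 FPKM in AdGFP and 0.699, 1.77 and 3 FPKM in AdCre, a log2 fold change of 1.80 ± 0.50 (adjusted p = 0.32 and 0.0458). Cmpk2 was at 0.301, 0.246 and 0.214 FPKM against 0.63, 1.13 and 2.85 FPKM, a log2 fold change of 1.98 ± 0.53 (adjusted p = 0.311 and 0.0725). In both genes the AdGFP samples were nearly level and the AdCre samples were spread. Bst2 (chr8:71534255-71537456) encodes tetherin, which holds budding virus at the cell surface. It stood at 17, 20 and 33.5 FPKM against 35.8, 47.8 and 126 FPKM, a log2 fold change of 1.41 ± 0.48 (adjusted p = 0.393 and 0.0179).

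Ifitm3, which blocks fusion of virus with endosomes, had the highest level of any member, from 79.8 to 207 FPKM in AdGFP and from 104 to 398 FPKM in AdCre. Its groups overlapped, and its log2 fold change of 0.68 passed with the block only (adjusted p = 0.752 and 0.0358). Samd9l, a restriction factor, was at 1.24, 1.32 and 2.77 FPKM in AdGFP and 1.44, 2.08 and 5.77 FPKM in AdCre, a log2 fold change of 0.62 ± 0.53 (adjusted p = 0.781 and 0.116) that was 0.06 without AdCre 3 and 1.02 without AdCre 1. Isg20, an exonuclease, was at 2.89, 3.73 and 4.58 FPKM against 3.53, 5.43 and 3.98 FPKM, a log2 fold change of 0.20 ± 0.23 (adjusted p = 0.843 and 0.478). That change was 0.03 without AdCre 2, 0.04 without AdGFP 1, 0.33 without AdCre 1 and 0.36 without AdGFP 3. Both genes overlapped between groups. Mx1 and Mx2, of a family of GTPases that trap viral nucleocapsids, were below the level for testing, and the gene annotation lists Mx2 as a polymorphic pseudogene. Mx1 had 0, 0 and 8 recovered reads in AdGFP and 95, 21 and 55 in AdCre, and Mx2 had 5, 10 and 15 against 33, 39 and 159. In both Mx genes every AdCre sample was above every AdGFP sample (exact two-sided permutation p = 0.1, the smallest possible).

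The PARP and DTX3L group was the class with the smallest median, 0.23. Parp12, an ADP-ribosyltransferase that blocks viral translation, was at 3.94, 4.63 and 5.83 FPKM in AdGFP and 6.14, 6.26 and 11.4 FPKM in AdCre, without overlap, and its log2 fold change of 0.67 ± 0.27 passed with the block (adjusted p = 0.479 and 0.0418). Parp14, a related enzyme, was at 1.27, 2.18 and 2.38 FPKM against 1.39, 3.06 and 4.25 FPKM, a log2 fold change of 0.47 ± 0.42 (adjusted p = 0.796 and 0.164). Parp9 and Dtx3l encode partners in 1 ubiquitin ligase complex and lie head to head on chromosome 16. Dtx3l was at 3.82, 5.7 and 5.51 FPKM against 3.22, 4.98 and 6.71 FPKM, and Parp9 at 5.04, 7.58 and 7.35 FPKM against 4.19, 6.28 and 10.4 FPKM. In both genes AdCre was below AdGFP in pairs 1 and 2 and above it in pair 3, and the log2 fold changes were -0.05 ± 0.29 (adjusted p = 0.982 and 0.857) and -0.01 ± 0.33 (adjusted p = 0.998 and 0.981), both turning positive under TPM scaling.

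Of the 9 other induced genes, 8 were higher in AdCre, 5 of them passed with the block, and the median log2 fold change was 0.95. Ifi35, a partner of NMI, was at 6.98, 7.08 and 5.57 FPKM in AdGFP and 10.7, 9.19 and 15.6 FPKM in AdCre. It had the smallest unadjusted p of any member without the block, with no overlap between groups and a log2 fold change of 0.82 ± 0.21 (adjusted p = 0.306 and 0.082), and 16.8% of its exon length is overlapped on the other strand by Gm11626. Lgals3bp, a secreted glycoprotein that binds galectins, was at 22.6, 35.5 and 42 FPKM against 36.2, 57.3 and 89.8 FPKM, a log2 fold change of 0.82 ± 0.36 (adjusted p = 0.513 and 0.0211). Rtp4, a chaperone of membrane receptors, was at 0.816, 1.35 and 3.31 FPKM against 1.89, 4.65 and 12.7 FPKM, a log2 fold change of 1.58 ± 0.73 (adjusted p = 0.535 and 0.0165). For these last 2 genes the AdGFP 3 sample lay above AdCre 1, and every pair was higher in AdCre.

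Trim30a, Xaf1 and Ifi27l2a also passed with the block, at log2 fold changes of 1.51, 1.03 and 0.95 (adjusted p = 0.0388, 0.0367 and 0.0415). Ifi44 and Sp100 did not, at 1.59 and 0.84 (adjusted p = 0.114 and 0.0819 with the block). Ifi27, whose protein lies in mitochondrial and nuclear membranes, was the only member lower in AdCre in all 3 pairs. It stood at 35.3, 44.1 and 48.5 FPKM in AdGFP and 27.8, 36 and 42.2 FPKM in AdCre, a log2 fold change of -0.28 ± 0.19 (adjusted p = 0.708 without and 0.0849 with the block). With single samples left out, the change ran from -0.42 without AdCre 3 to -0.12 without AdCre 1. Ifi27l2a, the adjacent gene of the same family on chromosome 12, was higher in AdCre in all 3 pairs.

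**Figure D3:**
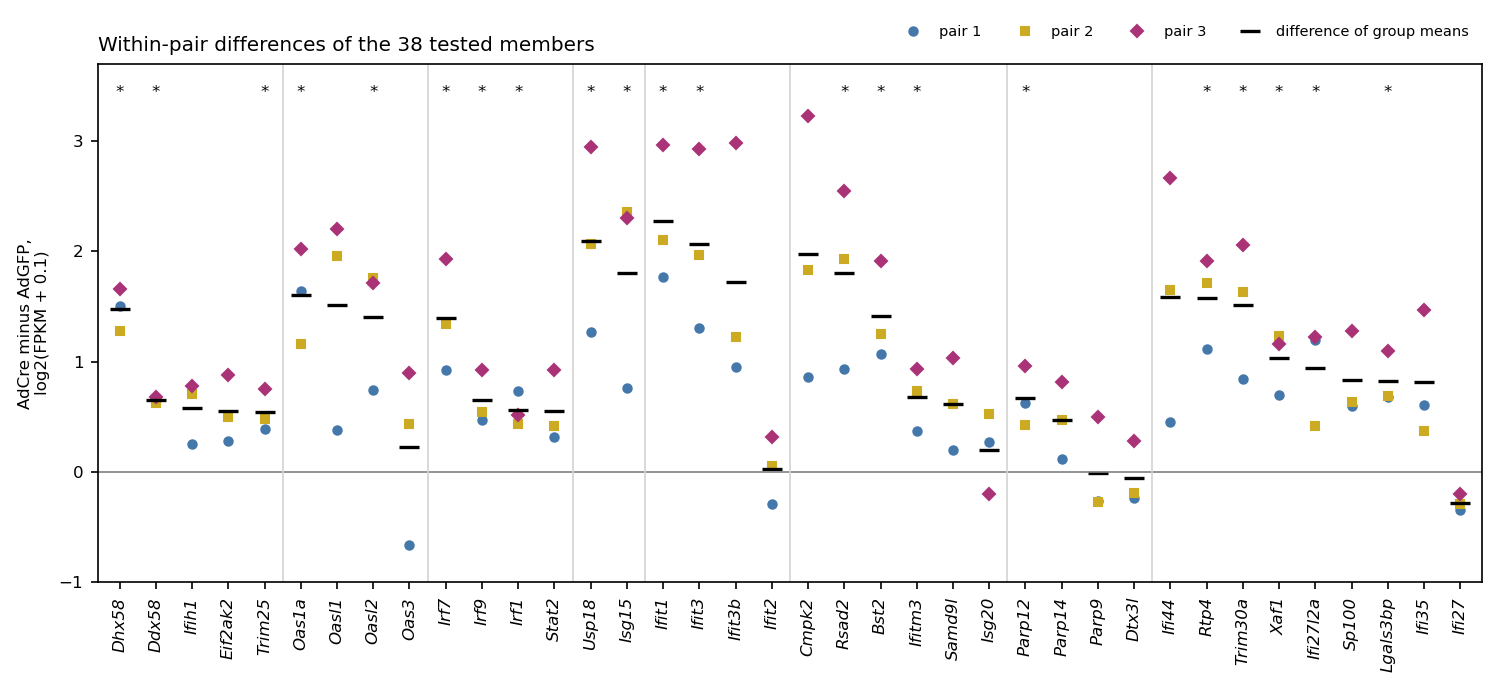
Difference between AdCre and AdGFP in each replicate pair, on the scale of log2(FPKM + 0.1), for the 38 tested members ordered by class (grey lines) and fold change; black bars are differences of the group means and asterisks mark the 21 members with an adjusted p under 0.05 in limma with the replicate block. Most members lie above 0 in every pair, pair 3 is the highest for many, and Ifi27 is the only member below 0 in all 3 pairs.

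The interferons themselves were at or near 0 in these libraries. Of 21 type I, II and III interferon genes, 19 were at 0 reads in every library, Ifnb1, Ifng and most of the interferon-alpha genes among them. A count of 0 allows up to 3 reads, which corresponds to between 0.094 and 0.217 FPKM depending on the gene and covers counting error only. The interferon-alpha genes share from 6.45% to 67.4% of their 50-base words with a related gene, so reads from them could have been left uncounted and the limit holds only for reads that map to 1 gene. Ifnb1 shares none (limit 0.162 FPKM). The other two, Ifnab and Ifnz, had at most 3 and 5 reads, and 75.1% of the words of Ifnz are shared with Gm13288. RNA was taken at a single time, so earlier transcription of these genes was not measured.

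The receptor and signalling genes did not follow the members. Of 10 tested, 0 were called in limma with or without the block (at an unadjusted p under 0.05, 0 without it and 2 higher and 1 lower with it), and their median log2 fold change was 0.02. Ifnar1 and Ifnar2, the receptor chains, had log2 fold changes of 0.16 and -0.05 (adjusted p = 0.408 and 0.715 with the block), and Jak1 and Tyk2, the kinases bound to them, 0.15 and -0.12 (adjusted p = 0.278 and 0.536 with the block). The sign of Ifnar2 turned under TPM scaling (0.03). Jak2 and Ifngr2, of the interferon-gamma receptor pathway, had log2 fold changes of 0.22 and -0.27 (adjusted p = 0.594 and 0.569 without and 0.183 and 0.0894 with the block).

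The machinery that senses nucleic acid and induces interferon was represented by 16 tested genes with a median log2 fold change of 0.11, of which 1 was called higher with the block (2.64% of all tested genes were, so the count is near the background). That gene was Samhd1, a nucleotide hydrolase that limits viral reverse transcription and is itself induced by interferon, with a log2 fold change of 0.51 ± 0.20 (adjusted p = 0.452 and 0.0499). Adar, the RNA-editing enzyme, and Tlr4, the lipopolysaccharide receptor, had log2 fold changes of 0.45 and -0.23, and neither passed (adjusted p = 0.15 and 0.252 with the block). Trex1, a DNA exonuclease, was listed at 0 in every library, but 100% of its exon length is overlapped on the same strand by Atrip, so reads from it could have been left uncounted and its level was not measured.

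Interferon-stimulated genes outside the list were also mostly higher in AdCre. Of 56 found, 43 were tested, 39 were higher in AdCre (49.6% of all tested genes were), and the median log2 fold change was 0.45. Limma with the block called 9 of them higher (2.64% of all tested genes), and without it 0, with 9 at an unadjusted p under 0.05 (4.71%). Ube2l6, the enzyme that carries ISG15 to its targets, was at 24.5, 21.7 and 21.8 FPKM in AdGFP and 39.9, 36.4 and 41.9 FPKM in AdCre. Its 2 groups were tight and far apart, unlike those of Isg15, and the log2 fold change was 0.79 ± 0.12 (adjusted p = 0.113 and 0.0145). Mlkl, the effector of necroptosis, and Zc3hav1, which encodes the antiviral protein ZAP, had log2 fold changes of 0.73 ± 0.18 (adjusted p = 0.274 and 0.0323) and 0.58 ± 0.18 (adjusted p = 0.344 and 0.029).

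**Figure D4:**
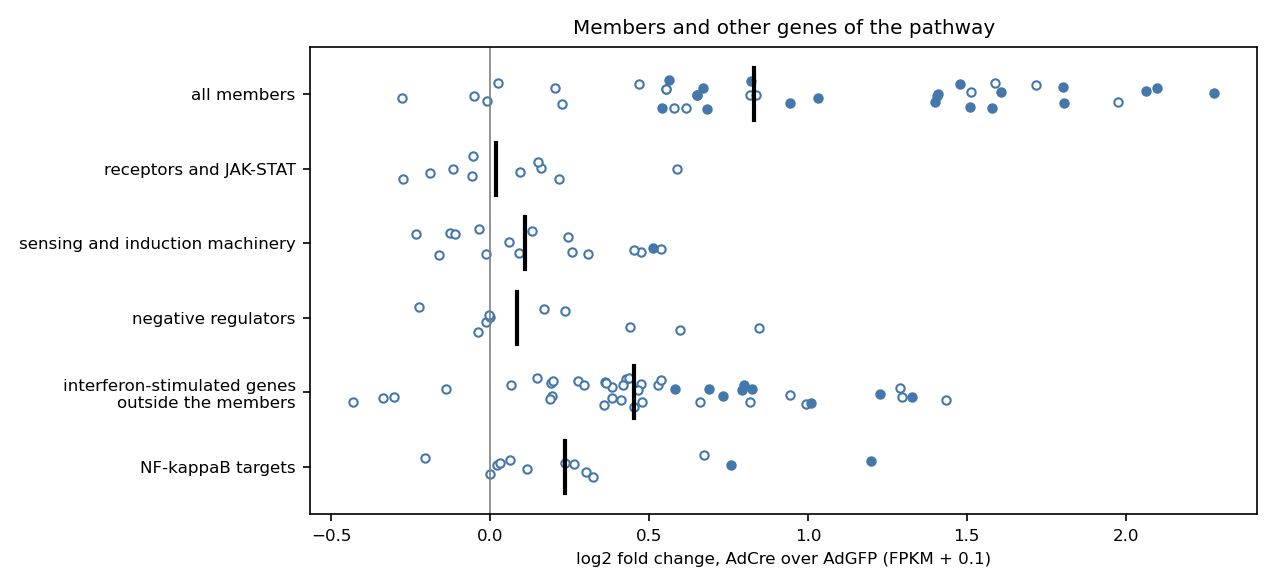
Log2 fold change of AdCre over AdGFP for the tested members and for the other gene lists of the pathway; each point is a gene, filled where limma with the replicate block gave an adjusted p under 0.05, and black bars are medians, with vertical scatter only for legibility. The members' median of 0.83 and the 0.45 of other interferon-stimulated genes lie above those of receptors (0.02), sensing machinery (0.11), negative regulators (0.08) and NF-κB targets (0.24).

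Markers of several cell types in the cultures differed between the groups as well. Cardiomyocyte markers were present at 5032 to 8489 summed FPKM in AdGFP and 2792 to 4301 in AdCre, lower in AdCre for all 10, of which 6 passed with the block (3.51% of all tested genes were called lower and 2.64% higher with it), and fibroblast markers summed to 2662 to 4708 and 2381 to 3412, with 6 of 8 lower in AdCre, 3 passing as lower and 1 as higher with the block. Mural markers summed to 108 to 115 FPKM in AdGFP and 107 to 125 in AdCre, with 2 of 4 higher and 0 passing in limma with the block (1 higher at an unadjusted p under 0.05), and epicardial or mesothelial markers to 91.9 to 196 and 88.3 to 116, with 4 of 5 lower and 0 passing (1 lower at an unadjusted p under 0.05). All 10 tested of the 11 macrophage or monocyte markers were higher in AdCre, 2 of them passing with the block, with sums of 50.8, 212 and 278 FPKM in AdGFP and 89.7, 287 and 349 in AdCre, and all 8 endothelial markers were higher, 4 passing with the block, with sums from 91.7 to 137 and from 135 to 194. In bulk RNA, fewer cells of a type and less RNA per cell cannot be told apart. The macrophage, endothelial and fibroblast sums were each lowest in replicate 1 and highest in replicate 3 of both groups, as was the median of the members. The pair differences on the log2 scale were 0.82, 0.44 and 0.33 for the macrophage sum, 0.55, 0.44 and 0.50 for the endothelial sum and -0.16, -0.19 and -0.46 for the fibroblast sum in pairs 1, 2 and 3, beside 0.64, 0.70 and 1.19 for the median of the members. Dendritic and lymphocyte markers were low, only 1 of the 11 was tested, and their sums were higher in AdCre in every pair although single markers such as Clec9a and Cd247 were not higher in every pair. The 5 dendritic markers summed to between 0.253 and 0.88 FPKM in AdGFP and between 0.551 and 1.20 in AdCre (pair differences of 1.12, 0.45 and 0.80 on the log2 scale), with Itgax, which macrophages also express, at 25 to 110 reads and Siglech at 0 in every library. The 6 lymphocyte markers summed to between 0.0557 and 0.399 FPKM in AdGFP and between 0.302 and 1.17 in AdCre (1.55, 0.90 and 2.69), with Cd79a at 13, 6 and 2 reads against 53, 10 and 14 and Cd3e and Nkg7 at 0 in every library. The part of these cell types in the interferon-stimulated transcripts was not tested.

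**Figure D5:**
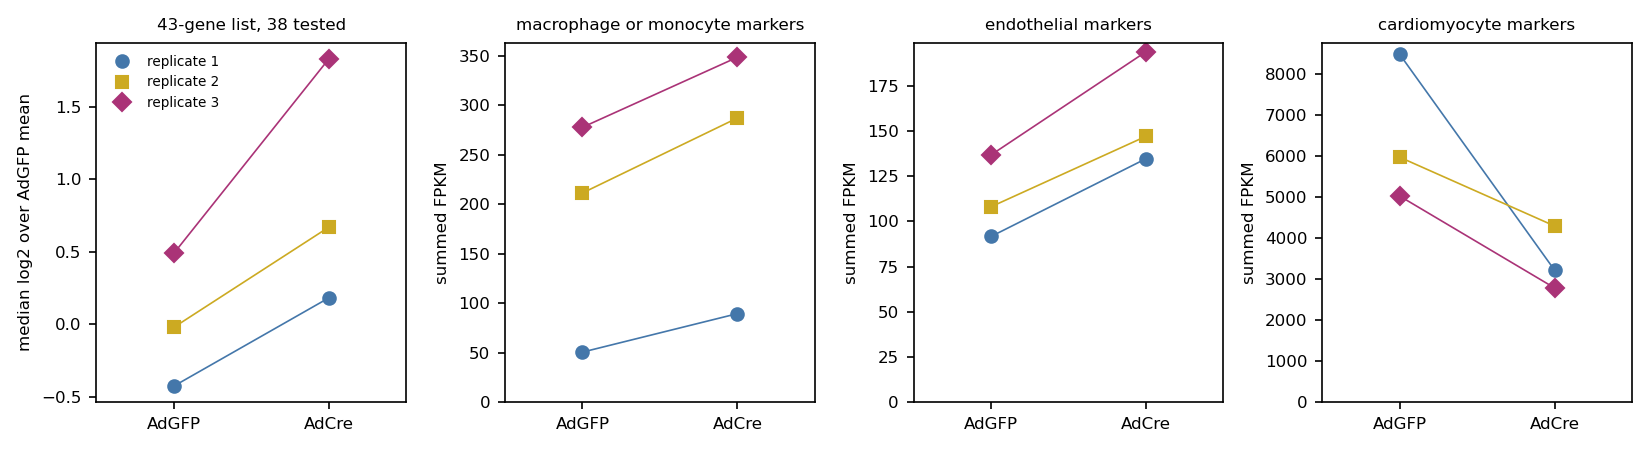
Median log2 level of the 38 tested members over their AdGFP means, and summed FPKM of macrophage or monocyte, endothelial and cardiomyocyte markers, in each library; colours and symbols mark the replicate number and lines join libraries with the same number. The member median ran from -0.43 in AdGFP 1 to 1.83 in AdCre 3, the macrophage and endothelial sums were higher and the cardiomyocyte sum was lower in AdCre in every pair.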

How the data were processed

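Cultures of 2 groups, 3 libraries each, were compared. The authors deposited FPKM per gene and library, with no pooling. The submitters' processing notes name fastp, STAR 2.5, HTSeq 0.6.1 and mm10, while the gene models and strand setting used for counting are not given in the sources used here. With exon lengths from GENCODE M21 (54495 of the 54532 gene IDs), 96.3% of 133217 values above 0 gave whole reads within 0.01 reads, with sums of 25.3 to 26.5 M reads in AdGFP and 26.0 to 32.4 M in AdCre. The denominators behind the FPKM were 0.931 to 1.03 times these sums, so libraries had been rescaled.

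Genes averaging 0.5 FPKM or more were tested as log2(FPKM + 0.1), which understates changes of low genes, with limma 3.58.1 in R 4.3.3 (lmFit, eBayes with trend) and Benjamini-Hochberg adjustment over all tested genes. Deviations from group means correlated at 0.568, 0.268 and 0.506 between samples with the same number and at -0.497 to 0.0364 between others, so replicate numbers were treated as pairs and the block value stands beside the results of the unpaired fit. The labels call the replicates biological but do not say what a number marks. On data simulated for this comparison (13794 genes, of which 200 changed), every gene had a residual SD of 0.25 and an independent pair effect (SD 0.3). There the block recovered 93% of log2 changes of 1 and 100% of log2 changes of 2, with 10.2% of its calls false. The unpaired fit recovered 7% and 100% with 0 false. The median of the members varied within groups with an SD of 0.68 on the log2 scale, so these rates do not describe the members.

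The members and gene lists were chosen with earlier results of these data known. Values in every sample were printed for the 3 tested members with the smallest p in each of 8 classes and for members lower in AdCre. Ddx58, Ifit2, Ifitm3, Samd9l, Isg20 and the untested members were added after their values were seen. So were 2 alternatives, values without the authors' scaling factors and the block with quantile normalization. No 2 libraries of the same group agreed within sampling noise.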

Additional observations from a re-analysis of the deposited data

How the results depend on the processing

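The count of members called in limma was 0 in the unpaired fit and under each of its alternatives without the block, with 5 to 28 members at an unadjusted p under 0.05, and 21 with the replicate block. With the block it was 2 without pair 2, 0 without pair 3, 0 with no filter on low genes, 0 without the intensity trend and 32 with voom on recovered reads, with 29, 29, 35, 33 and 33 members at an unadjusted p under 0.05. It was 16 to 25 under the other block settings, and the cause of the differences was not tested. Of all genes called with the block, 42.9% were higher in AdCre, and this was 61% with TPM and 57.6% with voom. The 9 members whose groups did not overlap became 9 to 29 with single replicates left out, 29 without pair 1 and 25 without pair 3, while the share of all tested genes went from 7.36% to 20.4% and 16.3% without those pairs. The median log2 fold change of 0.83 kept its direction in every alternative, from 0.44 without AdCre 3 to 1.23 without AdCre 1.

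Of the 57 single genes followed through the alternatives, 5 changed sign, none of which passed in either fit. With the block and without pair 3, Oas3 was at -0.109 and Ifit2 at -0.120, and with single samples left out Ifit2 ran from -0.0935 to 0.18. Parp9 was at 0.0771 with TPM, 0.00171 with median centring and 0.00829 with quantile normalization (the same with the block), 0.0354 with voom and 0.0502 without the authors' scaling, ran from -0.346 to 0.30 with single samples left out, and with the block was at 0.114 without pair 1, 0.117 without pair 2 and 0.0862 with voom. Dtx3l was at 0.0375 with TPM (also with the block) and 0.0107 without the authors' scaling, ran from -0.294 to 0.225, and with the block was at 0.0446 without pair 1, 0.0211 without pair 2 and 0.0304 with voom. Ifnar2 was at 0.0344 with TPM (also with the block), 0.00153 with voom, 0.00704 with voom and the block and 0.00734 without the authors' scaling, and ran from -0.179 to 0.0726. Depth limits statements on Mx1, Mx2, Zbp1, Oas2 and Herc6, whose libraries held 0 to 229 reads.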

Other observations

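Genes that restrain interferon signalling differed by a median of 0.08 on the log2 scale over 10 tested, and 0 passed in limma with or without the replicate block (3 and 1 at an unadjusted p under 0.05). The 3 with the smallest p were Socs1, an inhibitor of JAK kinases, at 0.84 (limma adjusted p = 0.154 with the block), Rnf125, a ubiquitin ligase that acts on RIG-I, at 0.60 (limma adjusted p = 0.124 with the block), and Ptpn6, the phosphatase SHP-1, at 0.44 (limma adjusted p = 0.216 with the block). Targets of NF-κB, which share inducers with interferon genes, were higher in AdCre for 11 of 13 tested (49.6% of all tested genes were), by a median of 0.24 on the log2 scale, and 2 passed with the block (2.64% of all tested genes were called higher). Icam1, a leukocyte adhesion receptor, was at 3.54, 3.64 and 7.06 FPKM in AdGFP 1, 2 and 3 and 6.05, 6.38 and 11.7 FPKM in AdCre, a log2 fold change of 0.76 (limma adjusted p = 0.53 without and 0.0169 with the block). Ccl2, a monocyte chemoattractant singled out after its values were seen, was at 4.48, 17.2 and 26.5 FPKM in AdGFP and 15.9, 30.8 and 51.3 FPKM in AdCre, a log2 fold change of 1.20 (limma adjusted p = 0.637 without and 0.0304 with the block). Both genes were higher in AdCre in all 3 pairs and overlapped between groups.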
